A study of Homo sapiens with 16 samples.

Results

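The 10 genes described here are small nucleolar RNA (snoRNA) host genes: C6orf48, now also named SNHG32, GAS5, SNHG1, SNHG5, SNHG6, SNHG8, SNHG12, SNHG15, ZFAS1 and EPB41L4A-AS1. They are 10 of the 26475 genes in the deposited table, and all 10 were among the 16012 that passed the filter on low counts. The members were taken by symbol, and the set was selected on measured values: C6orf48 had been among the strongest falls on ketogenic diet relative to high fat diet in tumours without inhibitors. That contrast is therefore given as a description only, with no test.

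The study measured RNA of A375 MA2-Luc tumours by sequencing. A375 is an established human melanoma line with an activated BRAF kinase, and the MA2-Luc cells are a luciferase-marked derivative. Into each NSG mouse, a strain that lacks T, B and natural killer cells, 250000 cells were injected behind the eye, and metastases were taken from the lungs. There were 4 groups of 4 libraries each: high fat diet without treatment, high fat diet with BRAF kinase and MEK 1/2 inhibitors, ketogenic diet without treatment, and ketogenic diet with the same inhibitors. Treatment was by oral gavage, 3 times per week over 5 weeks. The labels give the inhibitors by target class, with no compound name or dose, and state no ordinary chow group, no vehicle and no age of the mice. All tumours derive from 1 cell line, and no label ties a replicate to a single mouse, so the p-values measure the spread between these libraries.

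snoRNA host genes are transcribed and spliced, and their introns carry snoRNAs, short RNAs that guide chemical modification of ribosomal RNA. The spliced exons of most of them encode no conserved protein. Many begin, like messenger RNAs of ribosomal proteins, with a 5′ terminal oligopyrimidine (TOP) tract, a C at the first base followed by a run of C and T, which ties their translation to mTOR signalling and growth. Ribosomes read their short reading frames, and many of the spliced RNAs are degraded by nonsense-mediated decay, so that they build up when translation is held back. GAS5 was named for its build-up in growth-arrested cells, and several of these genes are studied as long non-coding RNAs in cancer.

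In the GENCODE release 29 annotation on hg38, the hosts of box C/D snoRNAs are C6orf48 (chr6:31834608-31839766, plus strand), GAS5 (chr1:173863900-173868882, minus strand), SNHG1 (chr11:62851988-62855914, minus strand), SNHG5 (chr6:85660950-85678748, minus strand), SNHG6 (chr8:66921684-66926398, minus strand) and ZFAS1 (chr20:49278178-49295738, plus strand). The hosts of box H/ACA snoRNAs are SNHG8 (chr4:118278709-118279823, plus strand), SNHG15 (chr7:44983023-44986961, minus strand) and EPB41L4A-AS1 (chr5:112160526-112164276, plus strand), and SNHG12 (chr1:28578538-28583132, minus strand) carries both kinds.

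RefSeq classes all 10 as long non-coding RNAs, while GENCODE lists C6orf48 as protein coding. GAS5, SNHG6, SNHG12, ZFAS1 and EPB41L4A-AS1 overlap genes on the opposite strand that also have a row in the table (GAS5-AS1 and ZBTB37, MCMDC2, TRNAU1AP, ZNFX1, and EPB41L4A). No source used here states a strand setting, so reads of such pairs cannot be told apart.

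The sequences around the start of transcription are shown because the TOP tract is a feature that the choice of genes did not use. Each runs from 20 bases before the RefSeq start (GRCh38.p14) to 20 bases from it on, 5′ to 3′ on the strand of the gene. Capitals mark a C followed by at least 4 letters that are each C or T, beginning within 10 bases of the start.
C6orf48, chr6:31834896-31834935, plus strand: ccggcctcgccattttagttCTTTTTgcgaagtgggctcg
ZFAS1, chr20:49278622-49278661, plus strand: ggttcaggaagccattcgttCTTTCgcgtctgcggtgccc
SNHG5, chr6:85678714-85678753, minus strand: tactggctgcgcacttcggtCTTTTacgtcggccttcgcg
SNHG8, chr4:118278742-118278781, plus strand: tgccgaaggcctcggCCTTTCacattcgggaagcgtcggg
SNHG12, chr1:28581854-28581893, minus strand: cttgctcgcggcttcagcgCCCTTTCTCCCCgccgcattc
GAS5, chr1:173869026-173869065, minus strand: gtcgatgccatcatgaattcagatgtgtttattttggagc
SNHG1, chr11:62855866-62855905, minus strand: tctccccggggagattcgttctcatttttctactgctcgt
EPB41L4A-AS1, chr5:112160506-112160545, plus strand: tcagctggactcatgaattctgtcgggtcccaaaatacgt
RPL12, a ribosomal protein gene described further on, chr9:127451387-127451426, minus strand: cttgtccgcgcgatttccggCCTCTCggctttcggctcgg

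Of the 10 members, 8 have a promoter in the RefSeq table, and SNHG6 and SNHG15 are only named. Such a tract was found in 5 of the 8, in C6orf48, SNHG5, SNHG8, SNHG12 and ZFAS1. It was found in 11755 of all 35116 promoters (33.5%) and in 65 of 80 ribosomal protein promoters (81.2%). In GAS5 the annotated RefSeq start lies before the GENCODE gene, so this window may not show the start in use. The letters CACGTG, which MYC and related factors bind, were in 0 of the 8 members' 300-base windows and in 7.26% of all. TGACGTCA, a cyclic AMP response element, was in 0 of the 8 and in 1.85% of all. Both motifs read the same on either strand. A match in letters is not a measured start or binding site.

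Library totals ran from 37099876 to 77251525 RSEM counts, and levels are counts per 1000000 counts (CPM) on library sizes scaled by the trimmed mean of M-values (TMM). The labels name polyA RNA, but ribosomal RNA took 21.7 to 49.8% of counts in untreated high fat libraries, 14.99 to 19.96% in treated high fat, 15.2 to 33.6% in untreated ketogenic and 4.10 to 8.34% in treated ketogenic libraries. The 10 melanoma markers were all detected, with a summed level of 2358 to 4756 CPM. Some were near the floor, with a group mean under 1 CPM. These were 2 markers in untreated high fat, 3 in treated high fat, 3 in untreated ketogenic and 1 in treated ketogenic tumours. Summed markers reached at most 5.50 CPM for leukocytes, 3.09 for endothelium, 2.97 for lung epithelium, 1.09 for red cells and 43.7 for fibroblasts. The symbols are human and the host was a mouse, so these levels do not measure the share of mouse tissue. SFTPC was at 0 in 3 groups and CD3E in untreated high fat libraries. Untreated high fat replicate 4, treated high fat replicate 1 and treated ketogenic replicates 1 and 4 were the 4 libraries least like the others of their group, measured over all tested genes but the members.

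Libraries within a group differed widely in host gene RNA. The 10 genes summed to 1338, 952, 1182 and 2692 CPM in untreated high fat replicates 1 to 4. Their sums were 533, 480.1, 627 and 446 CPM with inhibitors on high fat diet, and 539, 455, 581 and 821 CPM in untreated ketogenic tumours. With inhibitors on ketogenic diet they were 989.8, 464, 468 and 1139 CPM. The treated ketogenic group thus fell into a pair of libraries as low as treated high fat tumours and a pair nearer to untreated high fat tumours.

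The libraries with the most host gene RNA in the untreated high fat and treated ketogenic groups had little RNA of TOP2A, the topoisomerase of dividing cells. This gene was chosen after its values were seen. TOP2A was at 34.3 CPM in untreated high fat replicate 4 against 261 to 297 in the other 3 libraries of that group. It was at 161 and 184 CPM in treated ketogenic replicates 1 and 4 against 335 and 452 in replicates 2 and 3. Untreated ketogenic replicate 4, the highest of its group in host gene RNA, had 372 CPM of TOP2A against 380 to 423 in the other 3. In treated high fat tumours, replicate 3 had the most host gene RNA (627 CPM) and 283 CPM of TOP2A, within the 268 to 328 of that group. Untreated high fat replicates 1 to 3 held 952 to 1338 CPM of host gene RNA at 261 to 297 CPM of TOP2A. The 4 treated high fat libraries held 446 to 627 CPM of host gene RNA. MKI67 and CDK1, also genes of dividing cells, differed between these libraries where TOP2A overlapped. MKI67 was at 139 to 186 CPM in untreated high fat replicates 1 to 3 and at 223 to 298 in treated high fat libraries. CDK1 was at 48.7 to 56.8 CPM and at 78.2 to 119 CPM in the same order. In untreated high fat replicate 4, MKI67 was at 16.6 CPM and CDK1 at 15.1 CPM. Untreated ketogenic replicate 4 had 230 CPM of MKI67 against 264 to 361 in the others of its group. Its CDK1 was at 80.6 CPM against 92.6 to 112. Treated high fat replicate 3 had the lowest MKI67 of its group (223 CPM) and the highest CDK1 (119 CPM). The part of proliferation in the levels of the host genes was not tested.

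**Figure D1:**
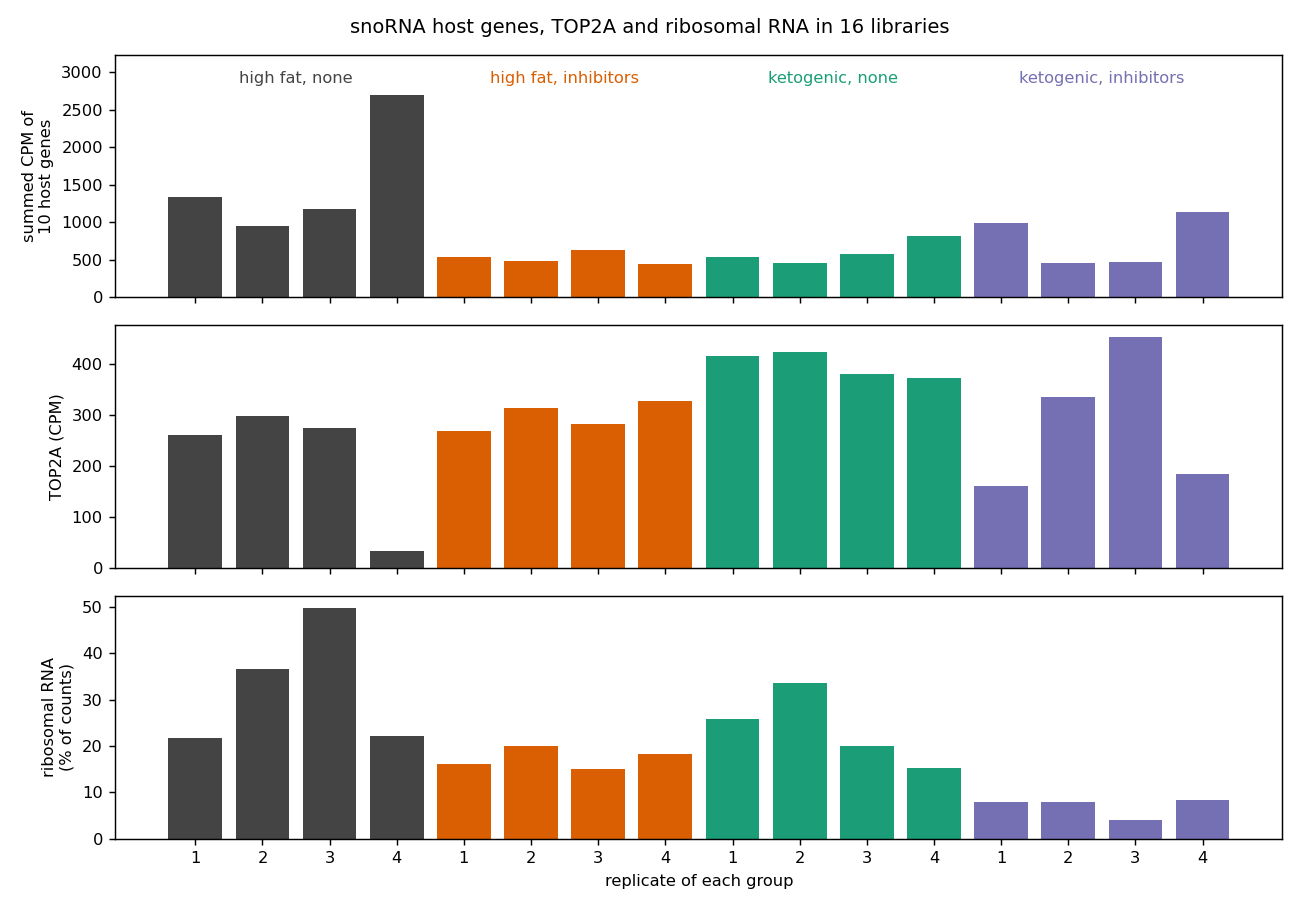
Summed CPM of the 10 host genes (top), TOP2A in CPM (middle) and the percent of counts from ribosomal RNA (bottom), with 1 bar per library and 4 replicates per group, coloured by group. Untreated high fat replicate 4 has the tallest host gene bar (2692 CPM) and the shortest TOP2A bar (34.3 CPM).

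C6orf48 had its highest level in untreated high fat tumours. It reached 147, 101, 126 and 370.3 CPM there in replicates 1 to 4, and 49.0, 33.7, 40.6 and 25.6 CPM with inhibitors on high fat diet. All 4 treated libraries lay under the lowest untreated library. On ketogenic diet it was at 45.1, 28.5, 47.6 and 80.1 CPM without inhibitors and at 94.1, 29.9, 30.9 and 89.0 CPM with them. The ketogenic groups overlapped each other and the treated high fat group, and none reached the untreated high fat range. Group means were 186 ± 124 (SD, n = 4), 60.9 ± 35.4 with inhibitors on ketogenic diet, 50.3 ± 21.6 in untreated ketogenic and 37.2 ± 9.98 CPM in treated high fat tumours, in that order from high to low. The 3 lower groups overlap as neighbours in that order.

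GAS5 followed the same order of groups. Its 4 untreated high fat libraries held 406, 315, 392 and 1156 CPM, and the treated ones 134, 109, 165 and 104 CPM. Untreated ketogenic libraries held 150.3, 123, 177 and 255 CPM, and treated ketogenic libraries 298, 112, 118 and 322 CPM. The highest treated ketogenic library came just over the lowest untreated high fat library.

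ZFAS1, first described as an antisense RNA in mammary gland and host of the SNORD12 family, was at 139.7, 92.5, 122 and 416 CPM in untreated high fat tumours. With inhibitors on that diet it was at 51.8, 50.4, 67.3 and 51.9 CPM, a narrow range below all untreated libraries. On ketogenic diet it was at 56.5, 49.95, 63.2 and 89.1 CPM untreated and at 139, 48.4, 55.0 and 138 CPM treated. In C6orf48, GAS5 and ZFAS1, untreated high fat replicate 4 stood at 2.97, 3.11 and 3.52 times the mean of the other 3 libraries of its group.

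EPB41L4A-AS1, the host of SNORA13, was at 62.7, 44.0, 53.5 and 83.6 CPM in untreated high fat tumours and at 20.3, 16.5, 15.3 and 11.3 CPM with inhibitors. Untreated ketogenic libraries held 16.1, 15.7, 18.7 and 34.3 CPM, and treated ones 42.4, 15.4, 14.6 and 31.7 CPM. All 4 untreated high fat libraries were above the other 12.

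SNHG8, the host of SNORA24, was at 122, 83.7, 105 and 130.2 CPM in untreated high fat and at 43.0, 35.2, 47.0 and 30.7 CPM in treated high fat tumours. It was at 46.2, 34.6, 46.7 and 73.5 CPM in untreated and at 78.8, 39.2, 33.0 and 74.0 CPM in treated ketogenic tumours. No library of the other 3 groups reached the untreated high fat range. In SNHG8, replicate 4 of that group was at 1.25 times the mean of its other 3 libraries, so this library weighs less here than in C6orf48.

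SNHG6, the host of SNORD87, was at 204, 131, 169 and 144 CPM in untreated high fat tumours. Treated high fat libraries held 80.8, 72.6, 101 and 63.2 CPM, all lower than every untreated one. On ketogenic diet SNHG6 was at 81.8, 64.6, 80.9 and 114 CPM untreated and at 136, 68.3, 65.3 and 105 CPM treated. It was the 1 member in which untreated high fat replicate 4 was under the mean of its other 3 libraries, at 0.857 times that mean.

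SNHG1, whose introns carry a run of box C/D snoRNAs, was at 89.5, 75.2, 87.7 and 142 CPM in untreated high fat and at 41.4, 47.4, 58.1 and 59.4 CPM in treated high fat tumours. Untreated ketogenic libraries lay close together at 45.3, 47.1, 47.8 and 57.1 CPM. Treated ketogenic libraries held 65.4, 52.7, 57.9 and 193 CPM, so that replicate 4 alone was above the untreated high fat range.

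SNHG5, the host of the SNORD50 pair, differed less between groups. It was at 139.9, 90.7, 103 and 219 CPM in untreated and at 93.6, 91.9, 106 and 75.9 CPM in treated high fat tumours, and these ranges overlap. Ketogenic libraries held 80.1, 75.6, 83.5 and 101 CPM untreated and 111, 77.5, 70.8 and 140.4 CPM treated.

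SNHG12 and SNHG15 did not share the high level in untreated high fat tumours. SNHG12 ranged from 9.64 to 19.8 CPM there (median 13.6), from 10.6 to 14.5 with inhibitors (median 12.8), from 8.38 to 11.03 in untreated ketogenic (median 9.33) and from 10.8 to 18.4 CPM in treated ketogenic tumours (median 13.6). SNHG15 was at 10.97, 9.81, 10.1 and 12.0 CPM in untreated and at 9.40, 10.4, 11.8 and 10.8 CPM in treated high fat tumours, an almost complete overlap. In SNHG15 the lowest group was untreated ketogenic, at 7.84, 6.63, 7.89 and 7.23 CPM, with all 4 libraries below the other 12. Treated ketogenic tumours held 11.3, 9.57, 9.36 and 28.8 CPM of SNHG15, with replicate 4 at 2.86 times the mean of the other 3.

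**Figure D2:**
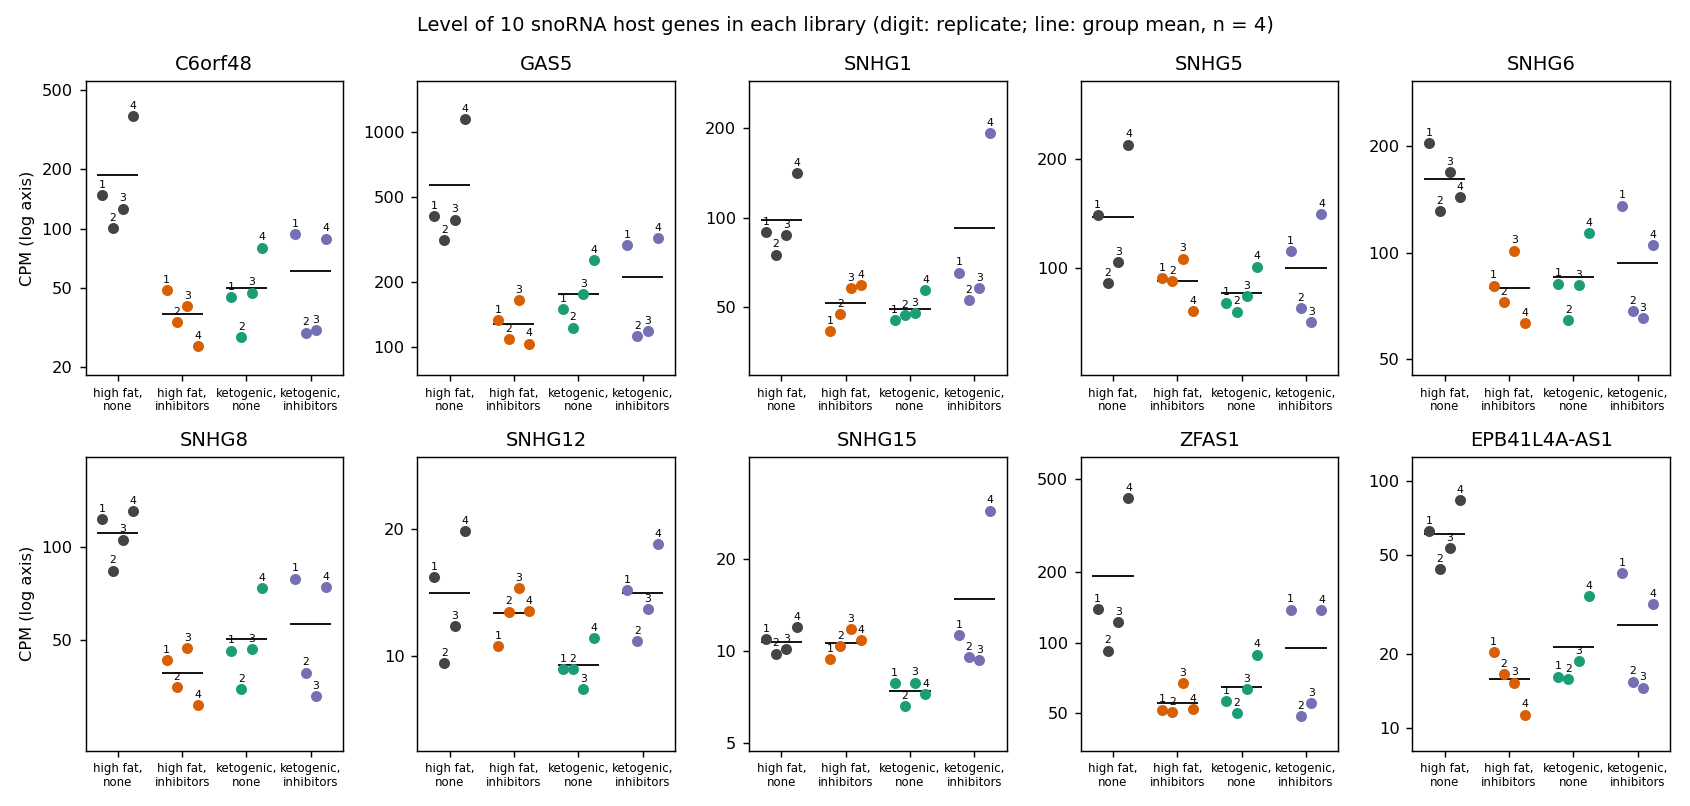
CPM on a log axis for each host gene in each of 16 libraries, by group, with the replicate number above each point and a line at the group mean (n = 4). All members but SNHG15 have their highest group mean in untreated high fat tumours. In SNHG12 that mean is nearly equal to the one of treated ketogenic tumours (14.15 against 14.14 CPM). Treated ketogenic replicates 1 and 4 lie above replicates 2 and 3 in all 10 panels.

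The first question is what the inhibitors did to the host genes on high fat diet. RNA of 7 of the 10 members was lower in treated tumours, by edgeR's quasi-likelihood test with Benjamini-Hochberg adjustment over all genes tested and a threshold of 0.05. None was higher at that threshold, none higher at an unadjusted p under 0.05, and none higher by DESeq2. Of all genes tested, 21.7% were lower and 20.6% higher. In a bulk tumour, fewer cells of a type and less RNA per cell cannot be told apart. This comparison shares its 4 untreated libraries with the contrast that chose C6orf48, so a high level in those libraries enters both. The p-values of C6orf48 on high fat diet, under any setting, are therefore not independent of its choice and are no separate evidence for its fall. C6orf48 is among the 7, and all counts of members lower on high fat diet include it.

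C6orf48 fell by 2.32 on the log2 scale (SE 0.49, adjusted p = 0.00221, not independent of its choice), a level 5.00-fold lower. GAS5 fell by 2.15 (SE 0.45, adjusted p = 0.00193), EPB41L4A-AS1 by 1.94 (SE 0.36, adjusted p = 0.000779) and ZFAS1 by 1.80 (SE 0.46, adjusted p = 0.00646). SNHG8 fell by 1.504 (SE 0.28, adjusted p = 0.00082), SNHG6 by 1.03 (SE 0.23, adjusted p = 0.00274) and SNHG1 by 0.93 (SE 0.34, adjusted p = 0.0409). In each of these 7 genes all 4 treated libraries were below all 4 untreated ones, which held for 22.2% of all genes tested. SNHG5 was at -0.59 (SE 0.25) and missed the threshold at an adjusted p of 0.0665. SNHG12 (-0.16, SE 0.20) and SNHG15 (-0.02, SE 0.27) were near 0, and both turn positive when libraries are scaled by their total alone (0.070 and 0.25). The median log2 fold change was -1.27 over the members and -0.03 over all genes tested.

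Without untreated high fat replicate 4, 6 of the 10 were lower. C6orf48 then fell by 1.74 (adjusted p = 0.0053), GAS5 by 1.54 (adjusted p = 0.00323) and ZFAS1 by 1.09 (adjusted p = 0.0161), while SNHG1 missed the threshold (log2 fold change -0.71, adjusted p = 0.114). SNHG8 (-1.42), SNHG6 (-1.08) and EPB41L4A-AS1 (-1.75) moved little, and SNHG12 and SNHG15 were at 0.04 each, above 0. SNHG1 also lost its call without any 1 of 7 other libraries: untreated high fat replicates 1 and 3, each of the 4 treated high fat replicates, and untreated ketogenic replicate 1 (adjusted p = 0.0507 to 0.0954). SNHG5 passed without untreated high fat replicate 2 or 3 or treated ketogenic replicate 4 (adjusted p = 0.0262, 0.0466 and 0.0495), and was at -0.28 (adjusted p = 0.294) without untreated high fat replicate 4. Without the 4 libraries least like their group, 7 of the 10 were lower. The counts over all genes lean with the scaling, from 3295 higher and 3476 lower on TMM to 4856 higher and 1231 lower on library totals alone.

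**Figure D3:**
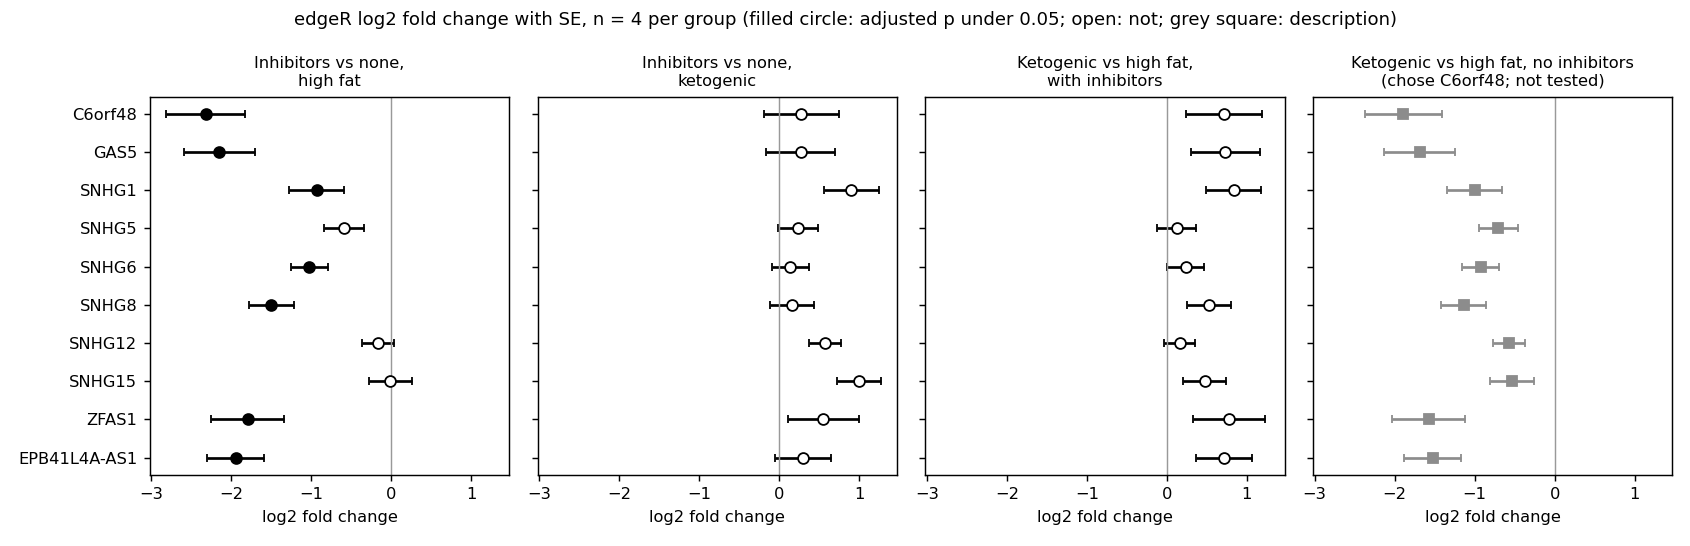
edgeR log2 fold change with its SE for each host gene in 4 comparisons (n = 4 per group), with filled circles for an adjusted p under 0.05, open circles otherwise and grey squares for the untested contrast that chose C6orf48. On high fat diet 7 genes lie left of 0 with filled circles, among them C6orf48, whose p there is not independent of its choice. SNHG12 and SNHG15 there turn positive on library totals alone, and 7 of the 10 points for inhibitors on ketogenic diet turn negative without the 4 libraries least like their group.

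Other gene groups tied to snoRNA hosts and to TOP RNAs give the context on high fat diet. Among 15 other non-coding snoRNA hosts, 14 were in the table and 13 were tested. Of these, 6 were lower and 0 higher by edgeR, beside 21.7% and 20.6% of all genes. At an unadjusted p under 0.05, 1 was higher (DANCR, 0.31), and 0 were higher by DESeq2. The median log2 fold change was -0.59. SNHG7 fell by 1.37 (SE 0.26, adjusted p = 0.000833), LRRC75A-AS1, now also named SNHG29, by 1.022 (SE 0.19, adjusted p = 0.000711) and SNHG3 by 0.73 (SE 0.15, adjusted p = 0.00122). SNHG20, SNHG10 and SNHG19 were the other 3 that fell. They are compared against the same untreated libraries as the members. On library totals alone the list had 2 lower and 2 higher, with a median of -0.28, beside 1231 lower and 4856 higher of 16012 genes.

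Protein-coding snoRNA hosts went both ways, with 9 of 21 higher and 5 lower, beside 20.6% and 21.7% of all genes. Their median was 0.25, against -0.03 over all genes. TAF1D, a subunit of the RNA polymerase I initiation factor, fell by 1.65 (SE 0.15, adjusted p = 5.13e-06) and EIF4A2, a translation initiation helicase, by 1.27 (SE 0.17, adjusted p = 7.9e-05). NOP58 and NOP56, core proteins of box C/D snoRNPs and themselves snoRNA hosts, rose by 0.78 (SE 0.13) and 0.50 (SE 0.11). Both also belong to the 17 snoRNP proteins and assembly factors, of which 7 were higher and 0 lower by edgeR, with 0 lower at an unadjusted p under 0.05 or by DESeq2 (median 0.18).

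Cytosolic ribosomal protein genes, the main class of TOP RNAs, were lower in 45 of 82 tested and higher in 1, with a median of -0.42. Of all genes, 21.7% were lower and 20.6% higher. The list was taken by symbol and also holds the paralogues RPL10L, RPL39L, RPL3L and RPS27L. On library totals alone, where the median of all genes was 0.25, 1 of these genes was lower and 3 higher (median -0.16). That scaling put 1231 of all 16012 genes lower and 4856 higher. On that scaling 6 of the 10 members were lower, with a median of -1.001 against -1.27 on TMM. With the ribosomal RNA share as covariate, 21 ribosomal protein genes and 6 members were lower, beside 2425 of the 16012 genes tested (3476 without the covariate). RPL12 fell by 1.11 (SE 0.19, adjusted p = 0.000356) and RPS26 rose by 0.73 (SE 0.15, adjusted p = 0.00124). Many ribosomal protein genes have near-identical processed pseudogenes, so single members are uncertain. Of 10 nonsense-mediated decay factors, 1 was higher and 1 lower, beside 20.6% and 21.7% of all genes. The lower was SMG9 (-0.39, SE 0.14, adjusted p = 0.0349), and UPF1, the central helicase, was at 0.07 (SE 0.08, adjusted p = 0.525). Of 11 genes of the list of TOP regulators and MYC, 1 was higher and 2 lower, beside the same 20.6% and 21.7% of all genes. On library totals alone 3 were higher and 0 lower, beside 4856 and 1231 of 16012 genes. LARP1, which binds TOP tracts, rose by 0.49 (SE 0.13, adjusted p = 0.00566), TIA1 fell by 0.55 (SE 0.10, adjusted p = 0.000527), and MYC was at -0.28 (SE 0.14, adjusted p = 0.111).

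On ketogenic diet the inhibitors moved no member past the threshold. The counts were 0 higher and 0 lower of 10 by edgeR, with 3 higher at an unadjusted p under 0.05 (SNHG1, SNHG12 and SNHG15) and 1 higher by DESeq2 (SNHG15). Of all genes tested, 0.856% were higher and 0.887% lower by edgeR at the adjusted threshold. By DESeq2, 439 of 16012 genes were higher and 441 lower. The share of all genes at an unadjusted p under 0.05 was not counted in any comparison. Counts of members or of listed genes at that p therefore have no such share beside them. This comparison shares its untreated ketogenic libraries with the contrast that chose C6orf48. All 10 log2 fold changes were above 0, with a median of 0.29 against 0.01 over all genes.

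SNHG15 had the largest of these values, 0.996 (SE 0.27, adjusted p = 0.0742), and its 4 treated libraries were all above its 4 untreated ones, as in 5.26% of all genes. SNHG1 was at 0.90 (SE 0.34, adjusted p = 0.186) and SNHG12 at 0.57 (SE 0.20, adjusted p = 0.145). C6orf48 was at 0.28 (SE 0.47, adjusted p = 0.798) and GAS5 at 0.27 (SE 0.43, adjusted p = 0.783), each between a high and a low pair of treated libraries. ZFAS1 was at 0.55 (SE 0.44) and EPB41L4A-AS1 at 0.30 (SE 0.35). Treated ketogenic replicate 4 carries much of SNHG1 and SNHG15: without it they were at 0.25 and 0.45. SNHG15 passed without treated ketogenic replicate 3 (1.16, adjusted p = 0.0373, over a range of 0.0109 to 0.768 across its alternatives).

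The sign of most members on ketogenic diet rests on treated ketogenic replicates 1 and 4. With both left out, together with the least alike library of each high fat group, C6orf48 was at -0.71 (adjusted p = 0.264), GAS5 at -0.60 (adjusted p = 0.21), EPB41L4A-AS1 at -0.48 (adjusted p = 0.363) and SNHG8 at -0.46 (adjusted p = 0.345), and SNHG1, SNHG12 and SNHG15 stayed above 0. The median over the members was then -0.33.

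Of the context lists on ketogenic diet, SNHG11 (0.99, SE 0.24, adjusted p = 0.0457) was the 1 non-coding host of 13 that rose and NOP56 (0.48, SE 0.11, adjusted p = 0.0351) the 1 protein-coding host of 21. No ribosomal protein gene of 82, no decay factor of 10 and none of the 11 TOP regulators and MYC passed in edgeR's test. At an unadjusted p under 0.05, 3 ribosomal protein genes were higher and none was lower, and no decay factor and none of the TOP regulators and MYC was past it. At that p 6 of 17 snoRNP proteins and assembly factors were higher and 0 lower, 5 of 21 protein-coding hosts higher and 1 lower, and 3 of 13 other non-coding hosts higher and 0 lower. Those nearest were NOP58 (0.52, adjusted p = 0.053), DANCR (0.35, adjusted p = 0.179), RPS26 (0.46, adjusted p = 0.116), FAU (0.35, adjusted p = 0.183), NUFIP1 and UPF1 (0.28 and -0.16), SMG5 (0.20), TIAL1 (0.16) and MTOR (-0.21).

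Diets were compared under inhibitors as the 1 contrast whose groups hold no library of the choice of C6orf48. The untreated libraries still enter its low-count filter, its scaling and the spread shared by all groups, so the test is not independent of them. Treated ketogenic and treated high fat tumours did not differ past the threshold in any member, with 0 higher and 0 lower of 10 by edgeR, 0 by DESeq2, and 1 higher at an unadjusted p under 0.05 (SNHG1). Of all genes tested, 0.05% were higher and 0.119% lower by edgeR at the adjusted threshold. SNHG1 was at 0.84 (SE 0.34, adjusted p = 0.324), ZFAS1 at 0.78 (SE 0.45, adjusted p = 0.492), GAS5 at 0.73 (SE 0.43, adjusted p = 0.509), EPB41L4A-AS1 at 0.72 (SE 0.35, adjusted p = 0.408) and C6orf48 at 0.71 (SE 0.47, adjusted p = 0.559). SNHG8 (0.53), SNHG15 (0.48), SNHG6 (0.24), SNHG12 (0.16) and SNHG5 (0.12) were smaller, and the groups overlapped in all 10. All 4 libraries of 1 group were above those of the other in 3.45% of all genes and below in 3.68%. The median was 0.62 over the members and 0.02 over all genes. Without treated ketogenic replicate 4 the members' median was 0.28, with SNHG1 at 0.19 (adjusted p = 0.677) and SNHG15 at -0.07. Without the 4 libraries least like their group the median was -0.13, with C6orf48 at -0.13 and GAS5 at -0.12.

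No gene of the 6 context lists passed edgeR's test between diets under inhibitors either. At an unadjusted p under 0.05 there were 2 of 13 other non-coding hosts, 3 of 82 ribosomal protein genes and 1 of 17 snoRNP proteins higher, 1 of 10 decay factors lower, 2 TOP regulators higher and 2 lower, and none of the 21 protein-coding hosts. Among the genes with the smallest p of each list were SNHG3 (0.46, adjusted p = 0.2) and SNHG20 (0.49, adjusted p = 0.235), DKC1 (-0.16) and TAF1D (0.29), RPL36 (0.43) and RPL5 (0.28), NUFIP1 (0.34), UPF1 (-0.27, adjusted p = 0.175), and RPTOR (-0.38, adjusted p = 0.156) and LARP1 (-0.40, adjusted p = 0.193).

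The contrast that chose C6orf48, untreated ketogenic minus untreated high fat, is described without a test. Log2 fold changes were -1.89 (SE 0.49) for C6orf48, -1.69 (SE 0.44) for GAS5, -1.57 (SE 0.45) for ZFAS1 and -1.53 (SE 0.35) for EPB41L4A-AS1. They were -1.14 (SE 0.28) for SNHG8, -0.999 (SE 0.35) for SNHG1, -0.92 (SE 0.23) for SNHG6 and -0.70 (SE 0.25) for SNHG5. SNHG12 (-0.57, SE 0.20) and SNHG15 (-0.54, SE 0.27) had the smallest values. In 8 of the 10, all but SNHG5 and SNHG12, the 4 ketogenic libraries were below the 4 high fat ones, beside 12.2% of all genes. Without untreated high fat replicate 4, C6orf48 was at -1.31, GAS5 at -1.08, ZFAS1 at -0.87 and SNHG6 at -0.98, and the median of the members moved from -1.07 to -0.92.

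The difference between the inhibitor effects on the 2 diets, ketogenic minus high fat, contains that contrast and is given as values only. It was 2.60 for C6orf48, 2.42 for GAS5, 2.35 for ZFAS1, 2.24 for EPB41L4A-AS1, 1.84 for SNHG1, 1.67 for SNHG8, 1.16 for SNHG6, 1.01 for SNHG15, 0.82 for SNHG5 and 0.74 for SNHG12 on the log2 scale. The median of 1.75 dropped to 0.76 without the 4 libraries least like their group, with C6orf48 at 1.19, GAS5 at 0.95 and ZFAS1 at 0.75. Without treated ketogenic replicate 4, SNHG1 was at 1.19 and SNHG15 at 0.46. Without untreated high fat replicate 4, SNHG5 was at 0.51.

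The genes most like C6orf48 were found by Pearson's r of log2 CPM over the 16 libraries, which include those that chose C6orf48. GAS5 came first of 16011 genes (r = 0.987), followed by EPB41L4A-AS1 (0.972), RPL12 (0.967), SNHG8 (0.965) and LRRC75A-AS1 (0.965). Among the first 5 there were thus 4 non-coding snoRNA hosts and 1 ribosomal protein. ZFAS1 was at rank 9 (0.954), SNHG5 at 131 (0.882), SNHG6 at 133 (0.882), SNHG1 at 1150 (0.723), SNHG12 at 3183 (0.530) and SNHG15 at 5341 (0.314). The 82 ribosomal proteins had a median r of 0.864, from -0.508 to 0.967, against 0.035 over all genes. All points share libraries and their scaling, so these values describe how the levels ran together in these libraries.

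The likeness was also present among replicates. With each group's mean taken out, GAS5 remained at the first rank (r = 0.967), and among the next were TPT1 (0.950), SLC35C2 (0.939) and RPL12 (0.937). ZFAS1 was at 0.934, EPB41L4A-AS1 at 0.925 and SNHG5 at 0.910, while SNHG6 (0.684), SNHG1 (0.596) and SNHG15 (0.507) were less like it. Without untreated high fat replicate 4, r with C6orf48 was 0.979 for GAS5, 0.987 for SNHG8 and 0.958 for SNHG6, and it dropped to 0.616 for SNHG1 and 0.299 for SNHG12. Within the members over all 16 libraries, the highest r of SNHG1 were with ZFAS1 (0.816) and SNHG15 (0.793). Those of SNHG12 were with SNHG5 (0.784) and SNHG1 (0.771), and those of SNHG15 with SNHG1 (0.793) and SNHG12 (0.752).

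**Figure D4:**
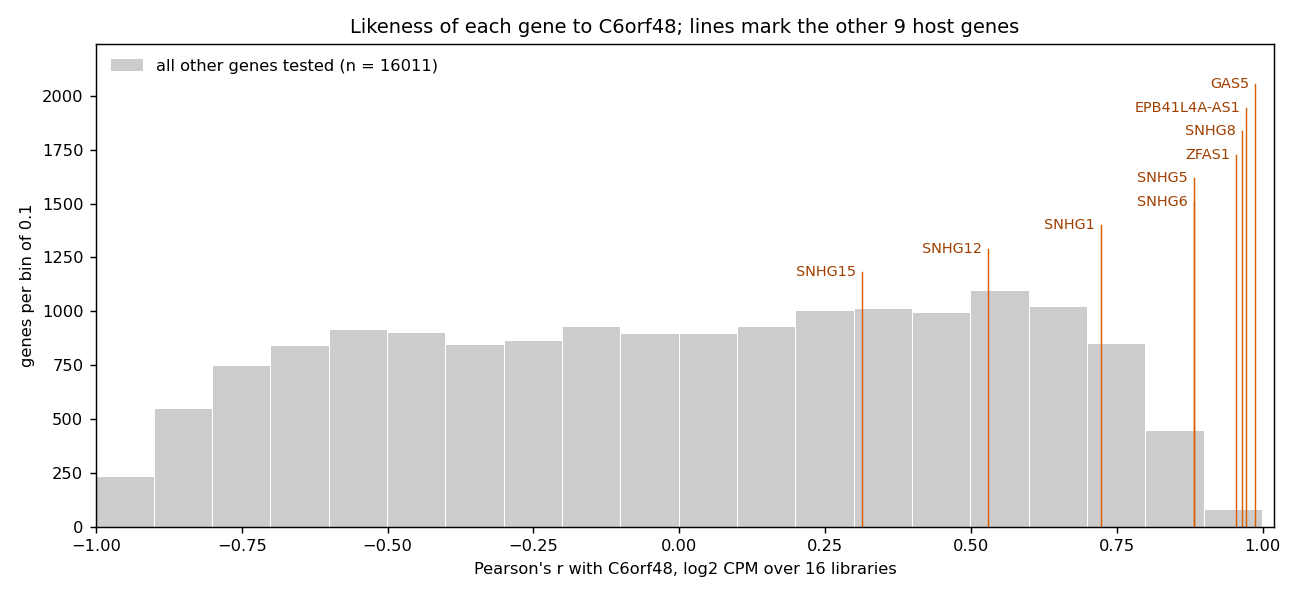
Number of genes per bin of 0.1 in Pearson's r with C6orf48 (log2 CPM, 16 libraries), for the 16011 other genes tested, with lines at the other 9 host genes. GAS5, EPB41L4A-AS1, SNHG8 and ZFAS1 lie in the last bin, which holds 80 genes, and SNHG12 and SNHG15 lie in the body of the distribution.

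The snoRNAs carried by the 10 genes could hardly be measured in these libraries. Mature snoRNAs are short and have no polyA tail. All 33 listed snoRNAs have a row and lie within their host in RefSeq, but 15 were at 0 in every library, among them SNORD48 and SNORD52 of C6orf48. The other 18 summed to 2482 counts over all 16 libraries, beside 758900 for their hosts. Only 5 passed the filter: SNORD22 of SNHG1 with 757 counts, SNORA24 of SNHG8 with 522, SNORA61 and SNORA44 of SNHG12 with 402 and 111, and SNORD76 of GAS5 with 284. The changes given above are therefore changes of the spliced or unspliced host RNA, and the level of the snoRNAs themselves was not detectable for most of them at this depth.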

How the data were processed

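The authors deposited 1 table of RSEM expected counts per gene symbol for 16 libraries. Per the submitters' processing notes, the tools were Bowtie2 2.1.0 and RSEM 1.2.15 with hg38. No source used here states the annotation, the strand setting or how reads from the mouse were handled. Values were rounded to whole numbers (13.0% were not whole). R 4.3.3 with edgeR 4.0.16 fitted the 4 groups together over 16 libraries (filterByExpr, TMM, robust quasi-likelihood, two-sided tests, Benjamini-Hochberg over 16012 genes, threshold 0.05). The SE of a log2 fold change is its size divided by the square root of F. CPM used TMM sizes, and likeness used log2 CPM with a prior count of 2. Alternatives used DESeq2 1.42.0, limma 3.58.1, other scalings and filters, and left-out libraries. The procedure was tested on simulated data. The precision of a level is set by its depth and the spread over 4 libraries (common biological coefficient of variation 0.228).

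Members and lists were chosen with earlier results of these data known. Named were all members, the 5 genes most like C6orf48, the 2 genes of each context list with the smallest p per comparison, MYC, LARP1 and UPF1, and the hosted snoRNAs. No columns were identical. Same-numbered libraries did not deviate together (r = -0.153 to 0.207), so the numbers were not taken as pairs. No sequence of SNHG6 or SNHG15 is printed. A few genes that this rule or the lists take are not reported here.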

Additional observations from a re-analysis of the deposited data

Results flagged for a closer look

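A library was called apart where its gap to the nearest of the other 3 libraries of its group exceeded 0.829 of the group's whole range (Dixon's 95% value for 4 samples). Of 40 checks, 10 genes in 4 groups, 6 were past it. Chance gives about 1 in 20 for independent checks of normally distributed values. These genes run together (r = 0.977 for GAS5 and ZFAS1, 0.793 for SNHG1 and SNHG15), and the distribution of CPM was not checked. No excess over chance can therefore be read from the count. GAS5 was at 1156 CPM in untreated high fat replicate 4 against 315 to 406 in the others, and ZFAS1 at 416 CPM in the same library against 92.5 to 139.7. SNHG1 was at 193 CPM in treated ketogenic replicate 4 against 52.7 to 65.4, and SNHG15 at 28.8 CPM in that library against 9.36 to 11.3. ZFAS1 was at 67.3 CPM in treated high fat replicate 3 against 50.4 to 51.9. EPB41L4A-AS1 was at 34.3 CPM in untreated ketogenic replicate 4 against 15.7 to 18.7.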

How the results depend on the processing

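The count of members lower with inhibitors on high fat diet, 7, was 6 to 8 under every setting run, and 6 to 8 with each library left out in turn. Of these calls, SNHG1 was the 1 lost in any setting run. On library totals alone, which moved the median of all genes to 0.25 on high fat diet, 0.28 on ketogenic diet, 0.19 between treated and 0.15 between untreated diets, SNHG12 and SNHG15 on high fat diet were at 0.070 and 0.25. The count of members higher with inhibitors on ketogenic diet, 0, was 1 by DESeq2 and 2 on library totals alone, and 0 to 1 with 1 library left out. Of all 16012 genes tested, 439 were higher by DESeq2 and 916 on library totals alone. The median difference of inhibitor effects, 1.75, was 0.96 by limma voom with quality weights and 0.76 without the 4 libraries least like their group, a setting chosen after seeing the data. The causes were not tested.

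Signs turned as follows. Without those 4 libraries, inhibitor effects on ketogenic diet were -0.71 for C6orf48, -0.48 for EPB41L4A-AS1, -0.60 for GAS5, -0.19 for SNHG5, -0.34 for SNHG6, -0.46 for SNHG8 and -0.31 for ZFAS1. The diet effects under inhibitors were then -0.13 for C6orf48, -0.12 for GAS5, -0.16 for SNHG12, -0.21 for SNHG15, -0.29 for SNHG5, -0.24 for SNHG6, -0.052 for SNHG8 and -0.12 for ZFAS1, and the inhibitor effects on high fat diet 0.12 for SNHG12 and 0.10 for SNHG15. By voom, those on high fat diet were 0.13 for SNHG12 and 0.077 for SNHG15, those on ketogenic diet -0.44 for C6orf48, -0.15 for EPB41L4A-AS1, -0.40 for GAS5, -0.094 for SNHG5, -0.22 for SNHG6, -0.27 for SNHG8 and -0.11 for ZFAS1, and the diet effects under inhibitors -0.11 for SNHG12, -0.12 for SNHG15, -0.20 for SNHG5 and -0.11 for SNHG6. With the ribosomal RNA share as covariate, SNHG15 on high fat diet was at 0.10, the values on ketogenic diet were -0.59 for C6orf48, -0.12 for EPB41L4A-AS1, -0.49 for GAS5, -0.22 for SNHG5, -0.062 for SNHG6, -0.16 for SNHG8 and -0.24 for ZFAS1, and between treated diets -0.15 for SNHG12 and -0.22 for SNHG5.

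With each library left out in turn, values ran from -0.0090 to 0.60 for C6orf48, -0.040 to 0.63 for EPB41L4A-AS1, -0.098 to 0.31 for SNHG6 and -0.042 to 0.41 for SNHG8 on ketogenic diet. They ran from -0.31 to 0.041 for SNHG12 and -0.071 to 0.042 for SNHG15 on high fat diet, and from -0.074 to 0.64 for SNHG15 and -0.086 to 0.26 for SNHG5 between treated diets. With the replicate number as a block, 7 members were lower on high fat diet and 0 moved in the other tests. The fit with the block gave medians of -1.05 for the untreated diets and 1.60 for the difference. Only 3 of 16 libraries correlated best with their own number. The fit of only the 2 groups compared gives no difference of inhibitor effects. With 4 libraries per group the SE on high fat diet ran from 0.20 for SNHG12 to 0.49 for C6orf48. A difference had to be well above its SE to pass. SNHG5 on high fat diet (-0.59, SE 0.25) and SNHG15 on ketogenic diet (0.996, SE 0.27) both missed the threshold. Smaller differences may thus go unseen, above all in the more variable genes.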
